A study of Homo sapiens with 6 samples.

Results

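The 32 genes of glycolysis and the hypoxia response described here were chosen by name, from hexokinase to lactate dehydrogenase, with the glucose and lactate transporters, the main regulators and a set of genes that low oxygen induces. All 32 were found by symbol among the 28395 NCBI gene identifiers of the count table, and all 32 had enough reads to be tested. The cells were U251MG, an established human glioblastoma line, in 3 WT libraries and 3 NUAK2-CR libraries, which came from cells whose NUAK2 gene, encoding an AMPK-related kinase, was targeted with CRISPR-Cas9. By the methods of the study, cells that received guide vectors marked with GFP and mCherry were sorted and grown as clones. No drug, oxygen change or time course is named for either group. For the WT cells the methods name no guide vector, sorting or cloning, so these steps and the targeting of NUAK2 cannot be told apart. The labels do not say which clone each NUAK2-CR library came from, nor whether the 3 libraries of a group were separate cultures, so p-values measure the spread between these libraries, which may be technical.

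Glycolysis breaks glucose down to pyruvate in the cytosol and yields ATP without oxygen, and lactate dehydrogenase turns pyruvate into lactate when it is not passed to mitochondria. Several steps are shared among isozymes from different genes, such as the hexokinases and the phosphofructokinases, which differ in regulation and tissue. When oxygen is low, prolyl hydroxylases of the EGLN family stop marking HIF alpha subunits for destruction, and HIF then binds hypoxia response elements and raises most glycolytic genes together with genes for angiogenesis and pH control; glioblastomas are known for both programs.

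Sequences before the start sites of CA12, ADM and EGLN3, the hypoxia genes with the largest differences, and of ENO1, the enzyme furthest below WT, are shown because they carry, or lack, the core letters of the hypoxia response element, ACGTG or GCGTG. They are the 250 bases before the start in RefSeq, build GRCh38.p14, written 5′ to 3′ on the gene's strand, with a match to either motif on either strand in capitals (CACGT and CACGC are the other strand's letters). The windows are chr15:63381847-63382096 (minus strand) for CA12, chr11:10304823-10305072 (plus) for ADM, chr14:33951075-33951324 (minus) for EGLN3 and chr1:8878687-8878936 (minus) for ENO1.
CA12: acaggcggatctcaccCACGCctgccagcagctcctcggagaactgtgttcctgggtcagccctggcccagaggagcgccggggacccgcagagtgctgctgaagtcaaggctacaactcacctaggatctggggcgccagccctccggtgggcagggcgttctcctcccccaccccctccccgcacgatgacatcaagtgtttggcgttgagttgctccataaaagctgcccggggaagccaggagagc
ADM: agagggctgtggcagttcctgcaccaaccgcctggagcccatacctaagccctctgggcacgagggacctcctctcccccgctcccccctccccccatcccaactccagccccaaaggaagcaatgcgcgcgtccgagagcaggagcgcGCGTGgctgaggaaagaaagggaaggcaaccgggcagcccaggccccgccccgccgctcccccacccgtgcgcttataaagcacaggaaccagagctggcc
EGLN3: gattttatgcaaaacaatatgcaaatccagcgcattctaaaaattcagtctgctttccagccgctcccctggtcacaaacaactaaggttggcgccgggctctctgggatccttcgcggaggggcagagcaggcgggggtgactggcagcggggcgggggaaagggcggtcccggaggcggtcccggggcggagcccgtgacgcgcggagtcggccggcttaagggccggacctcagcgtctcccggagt
ENO1: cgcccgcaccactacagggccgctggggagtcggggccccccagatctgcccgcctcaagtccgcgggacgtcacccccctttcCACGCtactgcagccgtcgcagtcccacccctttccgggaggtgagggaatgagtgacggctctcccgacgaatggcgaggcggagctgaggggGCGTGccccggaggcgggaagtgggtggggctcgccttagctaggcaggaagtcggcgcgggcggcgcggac

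ENO1 held 2 matches, starting 166 and 72 bases before the start, CA12 held 1 at 234 bases and ADM 1 at 101 bases, and these letters did not occur in the EGLN3 window. HK2, the enzyme furthest above WT, has 2 windows in RefSeq, which held 3 and 6 matches and are not printed. RefSeq start sites were given for 28 of the 32 members, with 54 windows in all, of which 31 (57.4%) held a match, against 43.2% of the 35116 windows of all genes. The letters CACGTG, the E-box that other factors bind, hold a match on both strands. A match is a run of letters, and binding was not measured.

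As a check of the labels, NUAK2 (gene 81788, chromosome 1) stood at 1926, 1457 and 1580 normalized counts in WT (scaled so that all libraries have the same effective size), and at 799, 961 and 849 in NUAK2-CR. Its transcript was therefore lower in all 3 NUAK2-CR libraries but still present at 52.6% of WT. Totals ran from 29648445 to 55574081 counts per library, and all 3 WT libraries were deeper than all 3 NUAK2-CR libraries. Of 8 glial and glioma line markers, 7 were tested and all 7 were lower in NUAK2-CR, among them GFAP at 88323 ± 5494 normalized counts in WT against 14984 ± 1129 in NUAK2-CR (SD, n = 3), while OLIG2 had no count in any library. Of 6 markers of other cell types, PTPRC and EPCAM were too low to test, endothelial PECAM1 was higher in NUAK2-CR but scarce (raw counts of 2, 0 and 0 in WT against 12, 14 and 14, adjusted p = 0.000549), neuronal SNAP25 was 11.7-fold higher and macrophage CD68 lower in NUAK2-CR, and neuronal RBFOX3 did not pass. The part of these marker differences in the results on the members was not tested. All libraries came from the U251MG line rather than from mixed tissue. Whether fewer cells expressed a marker or each cell held less of its RNA cannot be told apart in such bulk samples.

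Comparing NUAK2-CR with WT, 23 of the 32 members passed edgeR's quasi-likelihood test with an adjusted p under 0.05, and NUAK2-CR was higher in 8 and lower in 15. Over all 14873 genes tested the same rule called 54.5%, with 26.3% higher and 28.2% lower, so more than 1 gene in 2 passed in this comparison. All 3 libraries of 1 group stood above all 3 of the other for 24 members, or 75.0%, against 61.4% of all genes. The median log2 ratio of the members was -0.20 and their median absolute value 0.45, against -0.01 and 0.37 for all genes. Most differences were modest: 5 members exceeded an absolute log2 ratio of 1, a rule that called 13.9% of all genes, and only CA12 exceeded 2, which called 4.72%. Among the 17 enzymes 3 were higher and 9 lower, among the 7 transporters and regulators 1 was higher and 4 lower, and among the 8 hypoxia response genes 4 were higher and 2 lower.

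**Figure D1:**
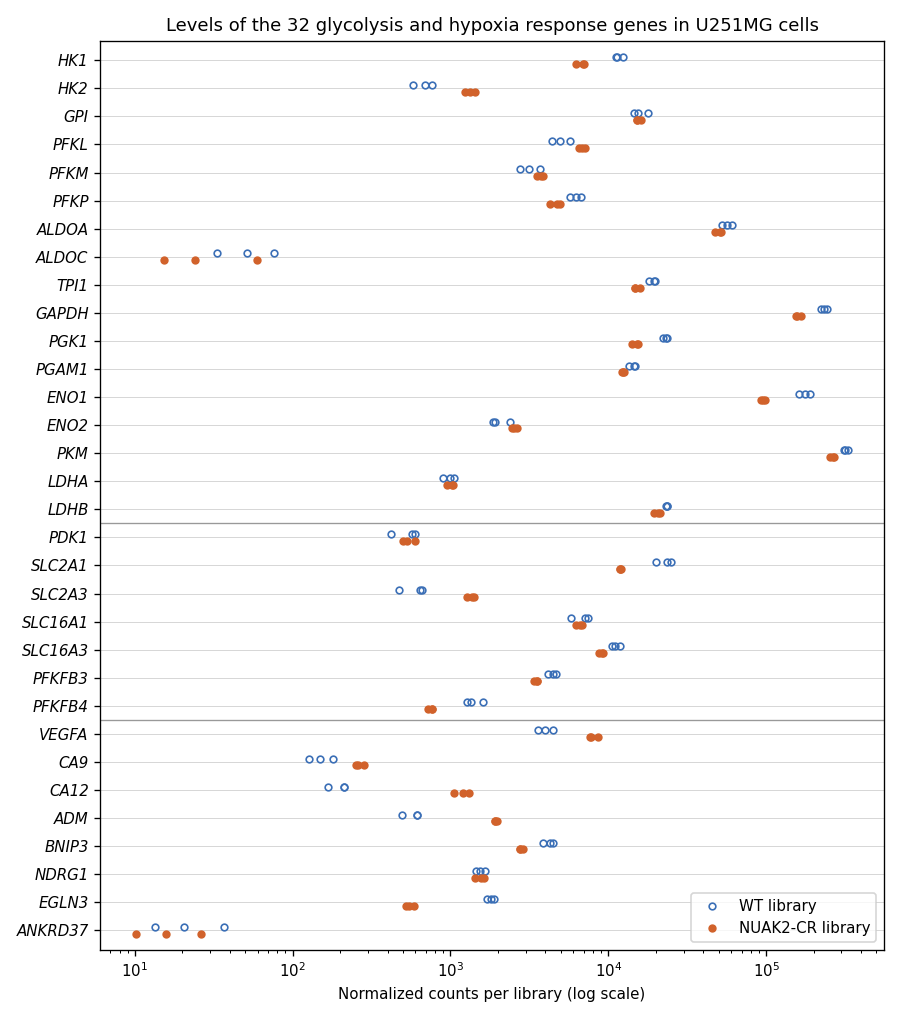
Normalized counts (log scale) of the 32 members in each library, with open circles for WT and filled circles for NUAK2-CR; lines divide enzymes, transporters and regulators, and hypoxia response genes. PKM, GAPDH and ENO1 stand highest, ALDOC and ANKRD37 lowest, and EGLN3 and CA12 show wide gaps in opposite directions.

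The enzymes held 2.43% ± 0.11 (SD, n = 3) of all counts in WT against 1.80% ± 0.04 in NUAK2-CR (SD, n = 3). The shares were 2.52%, 2.30% and 2.46% in the WT libraries and 1.80%, 1.84% and 1.76% in the NUAK2-CR libraries. The groups did not overlap, and PKM, GAPDH, ENO1 and ALDOA alone made up 80.9% of the members' counts in WT and 78.6% in NUAK2-CR. Per kilobase of exon in WT, GAPDH was the highest member at 97097 ± 4020 normalized counts, followed by PKM at 37378 ± 1108, ENO1 at 33793 ± 2622 and ALDOA at 14759 ± 1034 (SD, n = 3). With these merged exon lengths, 8.572 kb for PKM and 5.216 kb for ENO1, the 2 genes differed by less than the sum of their spreads in WT. Their canonical transcripts are shorter and hold 2206 and 1682 windows of 100 bases. The per-kilobase levels and the gaps between genes, including the small one between PKM and ENO1, therefore depend on the length used.

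At the start of the pathway the hexokinase isozymes went in opposite directions. HK1 (gene 3098, chromosome 10), the broadly expressed hexokinase, had 12310.4, 11213 and 11385 normalized counts in WT against 6937, 7062 and 6269 in NUAK2-CR, a log2 ratio (the log2 fold change of NUAK2-CR over WT) of -0.78 ± 0.07 (SE, adjusted p = 1.87e-06). HK2 (gene 3099, chromosome 2), the inducible hexokinase that many tumours use, had 766, 581 and 686 in WT against 1432, 1336 and 1232 in NUAK2-CR, a log2 ratio of 0.97 ± 0.11 (SE, adjusted p = 9.19e-06). Neither pair of groups overlapped. Per kilobase, HK2 made up 6.32% ± 0.57 of the 2 transcripts in WT against 18.7% ± 0.67 in NUAK2-CR (SD, n = 3), and the step's summed level was 66.9% of WT, with HK1 the larger part in both groups. The merged exon lengths were 6.876 kb for HK1 and 5.918 kb for HK2, whereas their canonical transcripts hold 3503 and 5527 windows of 100 bases. The size of the share and of the sum therefore depends on the length used. The share of HK2 did not overlap between the groups (two-sided exact permutation test, p = 0.1, the smallest that 3 against 3 libraries allow; 0.111 adjusted over the 10 isozyme shares tested). HKDC1, another hexokinase that is not a member, did not pass, with a log2 ratio of 0.02 (95% interval -0.15 to 0.20, adjusted p = 0.847).

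GPI (gene 2821, chromosome 19), which converts glucose-6-phosphate to fructose-6-phosphate, had 17793, 14571 and 15312 normalized counts in WT against 16195, 15263 and 15100 in NUAK2-CR. The groups overlapped, and the log2 ratio of -0.03 did not pass (95% interval -0.21 to 0.14, adjusted p = 0.744). Phosphofructokinase, the main control point of the pathway, also had isozymes that went in opposite directions. PFKP (gene 5214, chromosome 10), the platelet form, went from 6739, 5757 and 6243 in WT to 4933, 4752 and 4294 in NUAK2-CR, a log2 ratio of -0.42 ± 0.08 (SE, adjusted p = 0.000652). PFKL (gene 5211, chromosome 21), the liver form, went from 5711, 4379 and 4935 to 6811, 7102 and 6549, a log2 ratio of 0.44 ± 0.09 (SE, adjusted p = 0.00116). PFKM, the muscle form, overlapped between the groups at 0.21 (95% interval 0.01 to 0.42, adjusted p = 0.0764), and passed without WT replicate 1 at 0.33 (adjusted p = 0.000494). Per kilobase, PFKP was the largest isozyme in WT at 44.6% ± 1.5 and PFKL in NUAK2-CR at 40.8% ± 1.0 (SD, n = 3), with no overlap between groups for either (p = 0.1 for both, exact permutation test). The 3 isozymes summed to 103.8% of WT in NUAK2-CR, with overlapping groups.

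**Figure D2:**
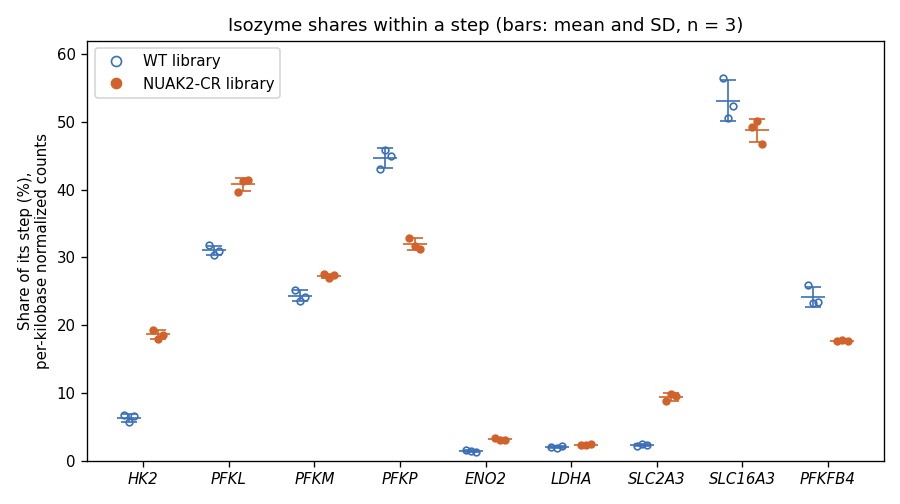
Share of an isozyme in its step (vertical axis, percent of per-kilobase normalized counts) in each WT (open) and NUAK2-CR (filled) library, with mean and SD of 3 libraries. HK2, PFKL, ENO2 and SLC2A3 take larger shares in NUAK2-CR, and PFKP and PFKFB4 smaller ones.

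In the middle of the pathway, aldolase splits the 6-carbon sugar. ALDOA (gene 226, chromosome 16) had 60351, 52441 and 56747 normalized counts in WT against 51307, 51419 and 47657 in NUAK2-CR. These groups did not overlap, but the log2 ratio of -0.17 missed the threshold (95% interval -0.33 to -0.02, adjusted p = 0.0582; 0.0465 with DESeq2, and 0.0245 in edgeR without WT replicate 2). In GENCODE 89.2% of its canonical transcript's 100-base windows also occur in an overlapping read-through gene, so its level depends on an annotation that the sources used here do not name. ALDOC, the brain form, had 77, 79 and 31 raw counts in WT against 47, 20 and 14 in NUAK2-CR, too few to resolve a difference (log2 ratio -0.71, 95% interval -1.72 to 0.30, adjusted p = 0.215). Without NUAK2-CR replicate 1 it was -1.43 (adjusted p = 0.0224). TPI1 (gene 7167, chromosome 12), which interconverts the triose phosphates, had 19475, 18092 and 19630 normalized counts in WT against 14690.2, 15783 and 14776 in NUAK2-CR, a log2 ratio of -0.34 ± 0.07 (SE, adjusted p = 0.000954).

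The enzymes after the triose phosphates, which generate the ATP of the pathway, were lower where they passed, except ENO2. GAPDH (gene 2597, chromosome 12) is the oxidizing enzyme of this stretch and also the transcript to which the study normalized its qRT-PCR. It had 231704, 223518 and 242713 normalized counts in WT against 157186, 165762 and 154907 in NUAK2-CR, so every NUAK2-CR library was below every WT library. The log2 ratio was -0.55 ± 0.06 (SE, adjusted p = 1.28e-05), or 68.5% of WT. PGK1 (gene 5230, chromosome X), which makes the first ATP, had 23583, 22284 and 23328 in WT against 15394, 15262 and 14107 in NUAK2-CR, a log2 ratio of -0.63 ± 0.07 (SE, adjusted p = 6.18e-06). PGAM1 (gene 5223, chromosome 10), the mutase of the next step, had 14849.8, 13457 and 14537 in WT against 12419, 12638 and 12270.4 in NUAK2-CR, a log2 ratio of -0.20 ± 0.07 (SE, adjusted p = 0.0215). Its call was lost without WT replicate 3 (adjusted p = 0.0615) and without NUAK2-CR replicate 1, 2 or 3 (0.0899, 0.0575 and 0.0857), and 46.2% of its transcript's 100-base windows are shared with PGAM4 and other copies.

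Enolase followed the pattern of the hexokinases. ENO1 (gene 2023, chromosome 1), the ubiquitous form, had 189274, 162003 and 177524 normalized counts in WT against 95709, 98802 and 93415 in NUAK2-CR, a log2 ratio of -0.88 ± 0.07 (SE, adjusted p = 5.96e-07). ENO2 (gene 2026, chromosome 12), the neuronal form, had 2391, 1859 and 1912 in WT against 2656, 2528 and 2443 in NUAK2-CR, a log2 ratio of 0.31 ± 0.09 (SE, adjusted p = 0.0156). The interval of ENO1, -1.03 to -0.72, overlaps that of HK1, -0.94 to -0.63, the other enzyme this far below WT. The ENO2 groups are close together, and the call was lost without WT replicate 2 (adjusted p = 0.0652) or WT replicate 3 (0.0696). The summed enolase level per kilobase was 55.4% of WT, nearly all of it ENO1. ENO2 took 1.40% ± 0.11 of it in WT against 3.13% ± 0.13 in NUAK2-CR (SD, n = 3; p = 0.1, exact permutation test).

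PKM (gene 5315, chromosome 15) encodes the pyruvate kinase of most tumours and was the member with the most reads. It had 316774, 313266 and 331182 normalized counts in WT against 266665, 270321 and 254699 in NUAK2-CR, a log2 ratio of -0.28 ± 0.06 (SE, adjusted p = 0.00159). The counts are per gene, so its M1 and M2 splice forms cannot be told apart. LDHB (gene 3945, chromosome 12), a subunit of lactate dehydrogenase, had 23628, 23310.3 and 23417 in WT against 19611, 21280 and 20634 in NUAK2-CR, a log2 ratio of -0.19 ± 0.06 (SE, adjusted p = 0.0213). That call was lost without NUAK2-CR replicate 1 (adjusted p = 0.142) or replicate 3 (0.0685), and 66.4% of the 100-base windows of its transcript also occur in an overlapping annotated gene. LDHA (gene 3939, chromosome 11), the subunit linked to lactate production and a textbook HIF target, had only 988, 901 and 1052 in WT against 949.8, 1024 and 1034 in NUAK2-CR. Its groups overlapped (log2 ratio 0.03, 95% interval -0.16 to 0.22, adjusted p = 0.774). Per kilobase LDHA made up 2.03% ± 0.15 of the lactate dehydrogenase transcripts in WT against 2.36% ± 0.05 in NUAK2-CR (SD, n = 3), so LDHB was the predominant form by these counts in both groups. Few of the windows of LDHA, 0.607%, were shared with another annotated transcript. That search did not cover copies outside the annotated transcripts. Whether LDHA reads were lost in alignment or counting was not tested.

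**Figure D3:**
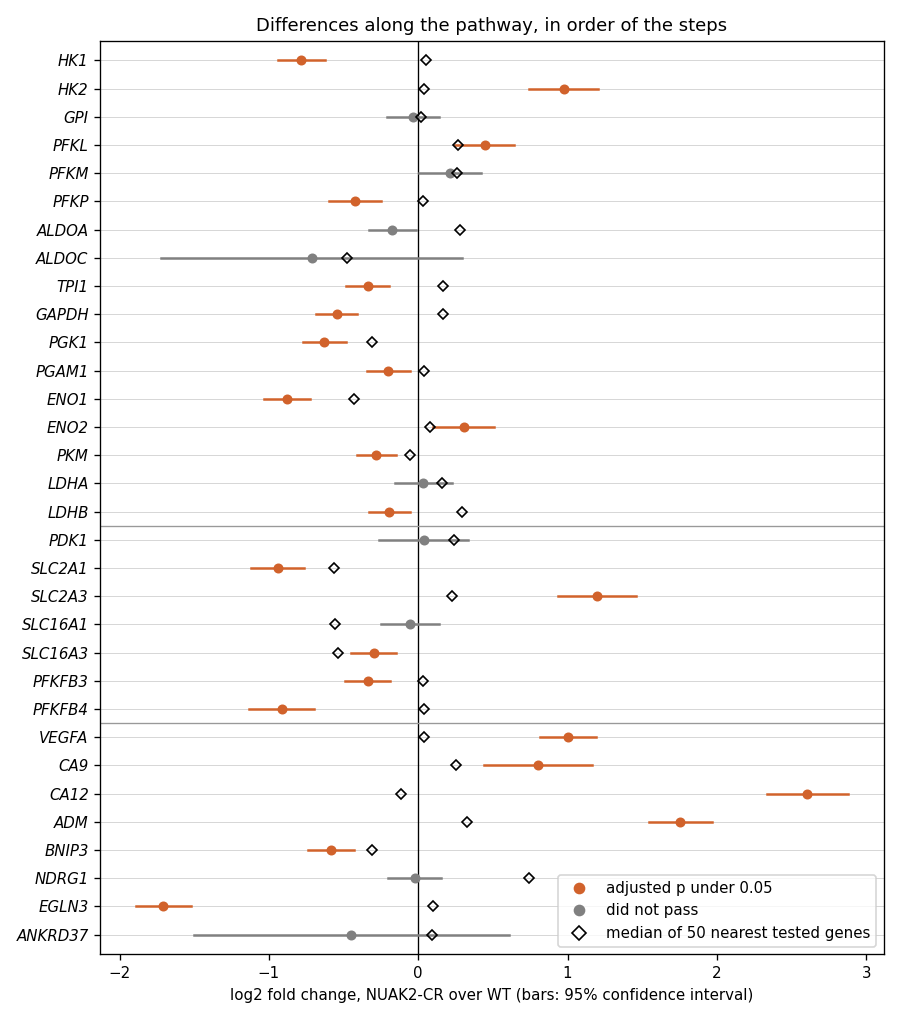
log2 fold change of each member, NUAK2-CR over WT, in pathway order, with its 95% confidence interval; orange points passed the test and grey points did not. Open diamonds give the median of the 50 tested genes nearest on the chromosome, which runs from -0.57 at SLC2A1 to 0.74 at NDRG1.

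Transporters carry glucose in and lactate out. SLC2A1 (gene 6513, chromosome 1), the basal glucose transporter GLUT1, had 20119, 23608 and 24843 normalized counts in WT against 12062, 11818 and 11806 in NUAK2-CR, a log2 ratio of -0.94 ± 0.08 (SE, adjusted p = 1.02e-06). SLC2A3 (gene 6515, chromosome 12), the high-affinity neuronal transporter GLUT3, had 471, 662 and 637 in WT against 1265, 1413 and 1369 in NUAK2-CR, a log2 ratio of 1.20 ± 0.12 (SE, adjusted p = 3.96e-06). As with the hexokinases, the abundant form was lower and the scarce form higher, and neither pair of groups overlapped. SLC2A3 made up 2.29% ± 0.20 of their per-kilobase sum in WT and 9.38% ± 0.58 in NUAK2-CR (SD, n = 3, p = 0.1, exact permutation test), while that sum was 56.1% of WT. SLC16A3 (gene 9123, chromosome 17), the lactate exporter MCT4, had 10993, 10599.8 and 11896 in WT against 9319, 9184 and 8710.2 in NUAK2-CR, a log2 ratio of -0.30 ± 0.07 (SE, adjusted p = 0.00272). SLC16A1 (gene 6566, chromosome 1), the transporter MCT1, overlapped between the groups at -0.05 (95% interval -0.25 to 0.14, adjusted p = 0.649), and was -0.15 without WT replicate 1 (adjusted p = 0.0429).

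The chromosomal surroundings of some members were shifted in the same comparison. The 50 tested genes nearest to SLC2A1 had a median log2 ratio of -0.57, and those around SLC16A1, SLC16A3, ALDOC, ENO1, PGK1 and BNIP3 -0.55, -0.53, -0.47, -0.43, -0.31 and -0.31. In the other direction, the local medians were 0.74 around NDRG1, 0.33 around ADM, 0.29 around LDHB, 0.28 around ALDOA, 0.27 around PFKL, 0.26 around PFKM and 0.25 around CA9. Less its local median, PFKL stood at 0.18, ADM at 1.43 and CA9 at 0.55, and LDHB at -0.48. On the same scale, SLC2A1 stood at -0.38 and ENO1 at -0.45, whereas SLC16A1 stood at 0.50 and SLC16A3 at 0.23. Around HK1, HK2, PFKFB4, VEGFA and EGLN3 the local medians lay between 0.04 and 0.10. The part of these surroundings in the members' differences was not tested.

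Of the regulators, PFKFB enzymes make and remove fructose-2,6-bisphosphate, the activator of phosphofructokinase. PDK1 inhibits the pyruvate dehydrogenase complex, which acts on pyruvate inside mitochondria. PFKFB4 (gene 5210, chromosome 3) had 1615, 1353 and 1265 normalized counts in WT against 764, 766 and 721 in NUAK2-CR, a log2 ratio of -0.91 ± 0.10 (SE, adjusted p = 8.14e-06). PFKFB3 (gene 5209, chromosome 10) had 4634, 4478 and 4137 in WT against 3555, 3548 and 3381 in NUAK2-CR, a log2 ratio of -0.34 ± 0.07 (SE, adjusted p = 0.00114), and its share of the pair's per-kilobase sum was 75.8% ± 1.5 in WT and 82.3% ± 0.09 in NUAK2-CR (SD, n = 3, p = 0.1, exact permutation test). PDK1 (gene 5163, chromosome 2), a HIF target, had 421, 573 and 597 in WT against 597, 529 and 503 in NUAK2-CR. Its groups overlapped, with a log2 ratio of 0.04 (95% interval -0.26 to 0.34, adjusted p = 0.832).

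The hypoxia response genes did not move together. CA12 (gene 771, chromosome 15), a membrane carbonic anhydrase that helps set extracellular pH, differed most among the members, with 167, 211 and 211 normalized counts in WT against 1317, 1050.4 and 1202 in NUAK2-CR. That is a 6.06-fold higher mean, a log2 ratio of 2.61 ± 0.13 (SE, adjusted p = 6.44e-09). Its relative CA9 (gene 768, chromosome 9), often used as a marker of hypoxic tumour cells, had 128, 149.5 and 181 in WT against 283, 260.5 and 251.4 in NUAK2-CR, a log2 ratio of 0.80 ± 0.17 (SE, adjusted p = 0.00136). CA9 stayed low in both groups, and 35.7% of its exon bases overlap ARHGEF39 on the other strand. Where strand is not used in counting, reads that match both genes are not counted, which can lower the level of CA9.

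The secreted factors were also higher. ADM (gene 133, chromosome 11), the vasodilator peptide adrenomedullin, had 494, 617 and 609 normalized counts in WT against 1914, 1902 and 1979 in NUAK2-CR, a log2 ratio of 1.76 ± 0.10 (SE, adjusted p = 1.9e-08). VEGFA (gene 7422, chromosome 6), the main angiogenic growth factor, had 3598, 4486 and 3959 in WT against 8596, 7822 and 7695 in NUAK2-CR, a log2 ratio of 1.00 ± 0.09 (SE, adjusted p = 1.06e-06). In both genes the lowest NUAK2-CR library was well above the highest WT library.

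EGLN3 (gene 112399, chromosome 14), the prolyl hydroxylase PHD3, which HIF induces and which acts back on HIF, went the other way. It had 1817, 1703 and 1882 normalized counts in WT against 523, 584 and 547 in NUAK2-CR, a 3.27-fold lower mean, with a log2 ratio of -1.71 ± 0.08 (SE, adjusted p = 7.84e-09). BNIP3 (gene 664, chromosome 10), a mitophagy receptor, had 3884, 4431 and 4265 in WT against 2764, 2861 and 2751 in NUAK2-CR, a log2 ratio of -0.59 ± 0.07 (SE, adjusted p = 1.86e-05). NDRG1 (gene 10397, chromosome 8), a stress-induced gene, overlapped between groups at 1458, 1657 and 1549 in WT against 1619, 1553 and 1421 in NUAK2-CR, a log2 ratio of -0.02 (95% interval -0.20 to 0.16, adjusted p = 0.84), although the tested genes around it had a median of 0.74. ANKRD37, a small ankyrin-repeat gene that HIF induces, with 55, 14 and 19 raw counts in WT against 8, 13 and 24 in NUAK2-CR, was too scarce to resolve (log2 ratio -0.45, 95% interval -1.50 to 0.61, adjusted p = 0.46). Of its exon bases, 40.35% overlap UFSP2 on the other strand, so its level can be lowered in the same way as that of CA9.

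The oxygen-sensing genes themselves were taken from a list of 14, of which 12 were tested, 2 were higher and 3 lower. That is 41.7% of those tested, below the 54.5% of all genes that passed. EPAS1, which encodes HIF2 alpha, had 974, 993 and 869.6 normalized counts in WT against 3100, 2817 and 2898 in NUAK2-CR, a log2 ratio of 1.63 ± 0.08 (SE, adjusted p = 6.44e-09). HIF1A, encoding HIF1 alpha, was more abundant per kilobase of exon, at 7264 ± 608 normalized counts in WT beside 129.7 ± 9.11 for EPAS1 (SD, n = 3). Its libraries stood at 34321, 40588 and 37348 in WT against 33839.9, 29933 and 33257 in NUAK2-CR. Its log2 ratio of -0.21 ± 0.08 (SE, adjusted p = 0.0396) was no longer called without WT replicate 2 or 3 (0.146 and 0.0809) or NUAK2-CR replicate 1, 2 or 3 (0.071, 0.181 and 0.0745). ARNT, the shared beta subunit, was lower at -0.39 and VHL, which marks HIF for destruction, higher at 0.36. HIF protein was not measured in these libraries.

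Of 21 further HIF target genes, 20 were tested, with 9 higher, 4 lower and a median log2 ratio of 0.17. That is 65% passing, beside 54.5% of all genes. Among those that passed, STC2, a secreted glycoprotein hormone, had 1.97 ± 0.11 (SE) and DDIT4, an inhibitor of mTORC1, 1.26 ± 0.09 (SE). Of 28 other isozymes and transporters, 10 were too low to test, 4 of the rest were higher and 3 lower. Of those tested 38.9% passed, below the share of all genes. SLC2A10, a further glucose transporter, had 306, 319 and 338 normalized counts in WT against 969, 1007 and 1056 in NUAK2-CR, a log2 ratio of 1.66 ± 0.09 (SE, adjusted p = 2.73e-08). SLC16A7, the transporter MCT2, had 0.90 and PGAM2, the muscle mutase, 0.78.

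In the 3 lists of routes that branch from glycolysis, more of the genes that passed were lower than higher. Over all genes tested, 28.2% were lower and 26.3% higher. In the pentose phosphate pathway 4 of 7 genes were lower and 2 higher (1 higher without NUAK2-CR replicate 3), with PGD, TALDO1 and TKT at -0.59, -0.55 and -0.52. Of 13 genes of pyruvate entry into mitochondria 8 were lower and 3 higher: the pyruvate carrier gene MPC1 had -0.89 and PDHX, a structural part of the pyruvate dehydrogenase complex, -1.25, while PDP2, a phosphatase that activates the complex, had 0.91. Of 14 genes of gluconeogenesis and glycogen, 11 were tested, 7 were lower and 2 higher. In the order given, 85.7%, 84.6% and 81.8% of the tested genes of these short lists passed, beside 54.5% of all genes.

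PCK1 and PCK2 make phosphoenolpyruvate outside and inside mitochondria, respectively, in the reverse direction of glycolysis. PCK1, the only gene of these lists to pass an absolute log2 ratio of 2, had 405, 314 and 350.4 normalized counts in WT against 2.54, 4.82 and 13.2 in NUAK2-CR, which rested on 2, 4 and 12 reads. Its log2 ratio was -5.63 ± 0.33 (SE, adjusted p = 3.33e-08). PCK2 had 369, 392 and 384 in WT against 945, 936 and 1001 in NUAK2-CR, a log2 ratio of 1.33 ± 0.09 (SE, adjusted p = 1.22e-07). In the same list PGM2, a phosphoglucomutase, had -0.74.

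Among the 5 genes of glucose sensing by MondoA and ChREBP, transcription factors that respond to glucose phosphates, 4 were lower and 1 higher. TXNIP, their best known target and a brake on glucose uptake, had 1069, 997 and 922 normalized counts in WT against 453, 429 and 491 in NUAK2-CR, a log2 ratio of -1.12 ± 0.10 (SE, adjusted p = 1.05e-06). ARRDC4, a related arrestin, had -0.74 and MLX, the partner of both factors, -0.62. The 1 higher gene, MLXIPL, which encodes ChREBP, passed at 1.08 (adjusted p = 0.0465) with few reads and was not called without WT replicate 2 or 3 or NUAK2-CR replicate 1 or 2. Over the 7 lists, 56 of 86 tested genes passed, or 65.1%, beside 54.5% of all genes.

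**Figure D4:**
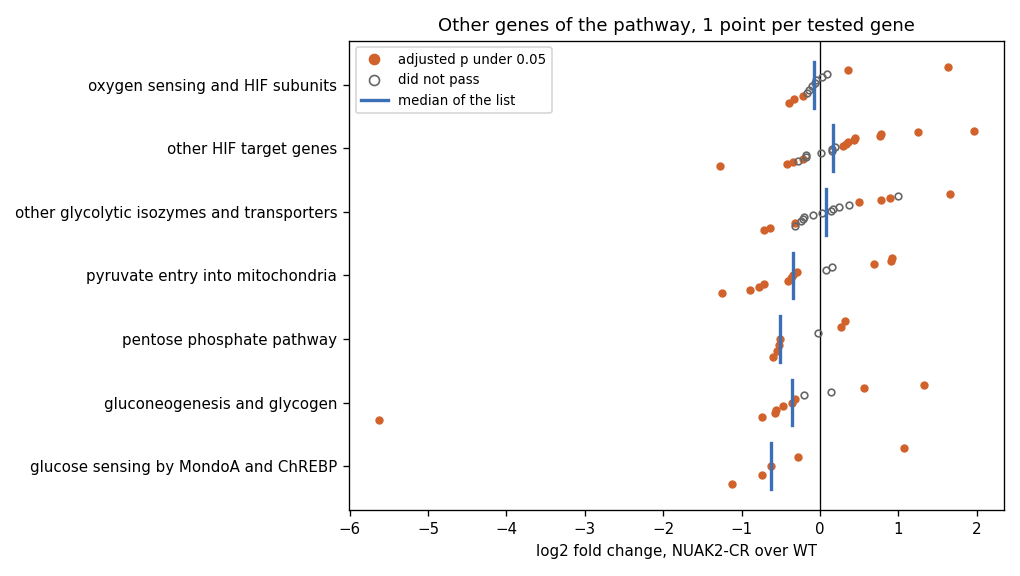
log2 fold changes, NUAK2-CR over WT, of the tested genes in 7 further lists of the pathway, 1 point per gene, filled where the adjusted p-value was under 0.05; the bar is each list's median. PCK1 stands far to the left at -5.63, and STC2, SLC2A10 and EPAS1 lead to the right.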

How the data were processed

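RNA was extracted with TRIzol and sequenced from poly(A) libraries made with a stranded Illumina kit. Per the labels and the study's methods, Trimmomatic trimming and HISAT2 alignment to hg38 came before featureCounts at default settings, and the authors deposited its raw counts per gene; the gene annotation is not given in the sources used here, and the default setting ignores strand. By default, reads that match several places or genes are not counted, which lowers genes with close copies. Depth was 29648445 to 55574081 counts per library. A count of 0 allows up to 3 counts, covering counting error only.

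Symbols came from RefSeq (27745 of 28395 identifiers). Counts were tested in R 4.3.3 with edgeR 4.0.16 (filterByExpr, TMM, prior count 0.125, quasi-likelihood F test), adjusted by Benjamini-Hochberg over 14873 genes. Standard errors are the fold change over the square root of F. Levels between genes use GENCODE v44 exon lengths, merged over all transcripts of a gene. Members and lists were chosen with earlier results of these data known. Named were all members, HIF1A, EPAS1, ARNT and, per list, genes past both thresholds and the 3 largest called changes with a mean of 100 or more, of which 1 is not reported here; HKDC1, MLXIPL, OLIG2, PTPRC, EPCAM and PECAM1 are given as well, HKDC1 and MLXIPL after their values were seen. The pipeline was tested on simulated counts. Alternatives were DESeq2 1.42.0, RLE and library-size scaling, other filters, prior count 2, a replicate block and each library left out.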

Additional observations from a re-analysis of the deposited data

How the results depend on the processing

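All 23 called members kept their sign under RLE, library-size and DESeq2 scaling, and the median of all genes stayed within 0.01 of zero. Leaving out 1 library at a time gave 7 to 9 higher and 13 to 16 lower members, and 19 to 24 higher and 29 to 34 lower genes of the other lists. With an absolute log2 ratio over 1 in place of 2, the members past both thresholds numbered 5 in place of 1. Of 415 member fold changes under alternatives, 392 kept direction and call, 8 lost the call, 7 gained it and 8 changed sign. The sign changes were in members that did not pass with all 6 libraries: leaving out 1 library gave log2 ratios of -0.096 to 0.061 for GPI, -0.026 to 0.088 for LDHA, -0.10 to 0.13 for PDK1, -0.15 to 0.015 for SLC16A1, -0.061 to 0.030 for NDRG1 and -0.88 to 0.065 for ANKRD37. The cause was not tested.

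Same-numbered libraries were not paired by any label, their deviations correlated at 0.0571, -0.0755 and 0.0872, and not every library correlated best with its own number. A replicate block gave 9 higher and 15 lower members, adding PFKM (0.22, adjusted p = 0.0364), which also passed with no filter (0.0465), and 23 higher and 32 lower genes of the other lists, with HIF1A no longer called (-0.21, adjusted p = 0.0541). Isozyme shares kept their direction by raw counts and without each library. With 3 libraries a group their exact p cannot go below 0.1. Local medians depended on the number of genes taken. Over 20 in place of 50 genes they were -0.65 at SLC2A1 and -0.38 at ENO1, and -0.22 in place of 0.17 at GAPDH. They were -0.12 in place of -0.31 at BNIP3, -0.37 in place of -0.53 at SLC16A3 and 0.12 in place of 0.25 at CA9. Those at ADM, LDHB and ALDOA moved little, to 0.32, 0.28 and 0.27.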
